A study of Mus musculus with 5 samples.

Results

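Hashtag antibodies marked the neutrophils of each mouse group in 3 tagged samples, and in each library 1 tag held the cells richest in transcripts of secondary granule proteins. These were the cells with tag MHTO7 in the library from AT3 tumour-bearing mice and the cells with tag MHTO4 in the library from naive mice. A cell was placed in a tagged population when 1 named tag made up at least 80% of its named-tag counts, with at least 20 counts. It was kept when it had at least 200 detected genes, under 10% mitochondrial transcripts and at least 2% of its unique molecular identifiers (UMIs, counts of captured transcripts) from S100a8 and S100a9, the alarmin genes that dominate neutrophil RNA. This left 1969 AT3 MHTO7 cells and 2062 naive MHTO4 cells, 4031 of the 24456 kept tagged cells of the series.

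All mice were wild-type C57BL/6J females, either naive or bearing AT3 tumours (AT3 is a mouse mammary carcinoma line). Neutrophils were sorted by flow cytometry from bone marrow, peripheral blood and lung, tagged, pooled and captured on 1 lane of the 10x Chromium system per condition. The labels tie no tag to a tissue, so the tissue of the MHTO7 and MHTO4 cells was not assigned, and they give no ages and no number of mice. Each condition was 1 library, so condition and lane cannot be told apart, no p-value was calculated, and intervals below are exact 95% intervals that cover counting error only.

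The tags are DNA barcodes carried by antibodies that bind the cell surface, and they are the only information that separates these cells from the rest of their lane. The tag sequences, read 5′ to 3′ and differing at 11 of 15 positions, were as follows.
MHTO7: GAGTCTGCCAGTATC
MHTO4: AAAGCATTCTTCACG
The chosen tag made up a median of 98.2% of named-tag counts in AT3 MHTO7 cells and 98.8% in naive MHTO4 cells, from medians of 233 and 415 tag counts. Only 5 and 4 kept cells had a tag share from 80% to 90%, and 4 and 1 cells fell just outside, from 70% to 80%. Of the cells with these tags, 17 AT3 and 68 naive cells failed the S100 minimum. From 2% to 3% S100 share there were 23 AT3 and 21 naive cells, and from 1% to 2% there were 14 and 19.

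Neutrophils form their granules in waves as they mature. Myeloblasts and promyelocytes make the primary granule proteases, myelocytes and metamyelocytes make the secondary granule proteins such as cathelicidin and lactoferrin, and band cells make the gelatinase granules, after which most granule genes are switched off. Granulocyte colony-stimulating factor (G-CSF) drives this production and signals through the transcription factor STAT3. Interferons act on neutrophils through their own receptors and switch on antiviral genes.

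The AT3 MHTO7 cells held more UMIs: their median was 9812 UMIs and 1656 genes per cell, against 5414 UMIs and 1334 genes in naive MHTO4 cells, and the sums were 21036113 and 12825187 UMIs. S100a8 and S100a9 together had medians of 38.7% and 37.2% of a cell's UMIs, and all 8 neutrophil markers passed 20 CPM (counts per 1000000 UMIs) in both. Markers of other cell types were near 0 in most lists: the summed level of B or plasma cell markers was 0.570 CPM in AT3 MHTO7 and 8.50 CPM in naive MHTO4, that of T or NK cell markers 5.66 and 22.6 CPM, and that of dendritic cell markers 10.4 and 77.3 CPM. Ly6c2, a monocyte marker that immature neutrophils also carry, was at 739 and 737 CPM. Epithelial markers summed to 77.7 and 574 CPM, of which the lung surfactant gene Sftpc made up 7.89 and 481 CPM and the club cell gene Scgb1a1 63.7 and 88.0 CPM. Of the cell barcodes, 44 were called in both libraries, among them 5 AT3 MHTO7 and 7 naive MHTO4 cells, and 2 barcodes lay in both populations. As a reference for free RNA, 18 AT3 and 71 naive cells marked as lymphocytes were used, with at least 3 UMIs of B or T cell genes and an S100 share under the minimum; they hold free RNA as well as their own.

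Granule transcripts were more abundant in naive MHTO4 than in AT3 MHTO7 cells, and both stood above the other tagged populations of their libraries, as they were chosen by their measured levels of Camp, Ltf and Ngp, so this paragraph and the granule genes of the next are given as a description. Camp, Ltf and Ngp, which encode cathelicidin, lactoferrin and neutrophilic granule protein, made up 5.19% of all UMIs in naive MHTO4 and 3.39% in AT3 MHTO7. The median per cell was 1.29% in naive MHTO4, with quartiles at 0.126% and 6.36%, and 0.173% in AT3 MHTO7, with quartiles at 0.0569% and 3.08%. In the other 4 populations of the naive and AT3 libraries the medians lay between 0.0605% and 0.0767%. The spread within each population was wide: 41.6% of naive MHTO4 cells (858 cells) and 58% of AT3 MHTO7 cells (1142 cells) had a granule share under 0.5%, while 17.5% (361 cells) and 8.53% (168 cells) reached 8% or more. Cells at 2% or more were 45.1% of naive MHTO4 and 30.2% of AT3 MHTO7. With each cell thinned to 2000 UMIs, leaving out 154 naive and 11 AT3 cells, the medians were 1.65% and 0.200%. The granule-rich cells were also the deepest: from the lowest to the highest of these 4 ranges of granule share the median went from 3161 to 10669 UMIs in naive MHTO4 and from 6582 to 19687.5 UMIs in AT3 MHTO7. These ranges are sections of a continuous score and not cell types.

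**Figure D1:**
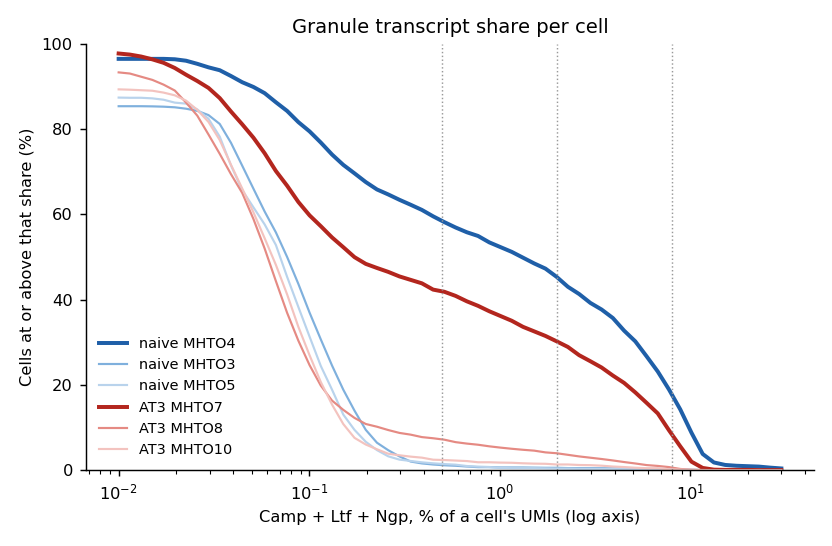
Share of cells (vertical axis, %) whose summed Camp, Ltf and Ngp reach at least the share of UMIs on the horizontal log axis, with 1 line per tagged population and dotted lines at 0.5%, 2% and 8%. The naive MHTO4 line passes 2% at 45.1% of cells and the AT3 MHTO7 line at 30.2%, and the other 4 lines fall below both.

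The granule genes did not all differ by the same amount. Camp (chr9:109847379-109849617, minus strand, mm10) was at 10518 CPM (interval 10474 to 10562) in AT3 MHTO7 and 21047 CPM (20967 to 21126) in naive MHTO4. Its log2 ratio, calculated here and below on CPM + 5 as AT3 MHTO7 over naive MHTO4, was -1.0, at the edge of a 2-fold difference. Ngp (chr9:110419747-110423012, plus strand) was at 18472 and 24292 CPM, a log2 ratio of -0.40. Ltf (chr9:111019271-111042767, plus strand) was at 4956 and 6576 CPM, a log2 ratio of -0.41. With TMM scaling, which assumes that most genes do not differ, the ratios became -0.55 for Camp, 0.05 for Ngp and 0.04 for Ltf, so only the lower Camp level kept its direction. The ratio between genes does not depend on scaling: for each 100 UMIs of Ngp there were 86.6 UMIs of Camp in naive MHTO4 and 56.9 in AT3 MHTO7, while those of Ltf were 27.1 and 26.8. The lower Camp share appeared in all 4 ranges of granule share, with 42.2, 56.6, 77.7 and 94.4 Camp UMIs per 100 of Ngp in naive MHTO4 from the lowest range to the highest, and 22.2, 24.8, 49.8 and 70.9 in AT3 MHTO7. The few granule transcripts of the other populations showed the same order, with 67.6 and 80.9 in naive MHTO3 and MHTO5 and 40.3 and 45.9 in AT3 MHTO8 and MHTO10.

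Genes entered the comparison if the larger of the paired sums was at or above 20 CPM, and they were called higher or lower from a 2-fold difference, a log2 ratio beyond 1 or -1. There were 3616 such genes, of which 90 (2.49%) were called higher in AT3 MHTO7 and 220 (6.08%) were called lower. The median log2 ratio of all compared genes was -0.29. TMM scaling shifted the median ratio of these genes up by 0.40 and gave 219 higher and 44 lower genes, so the share of higher genes among the calls went from 29.0% to 83.3%. All 90 higher genes stayed called under TMM, as did 44 of the 220 lower genes. Where a lower gene described below lost its call under TMM, its log2 ratio under TMM is given.

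**Figure D2:**
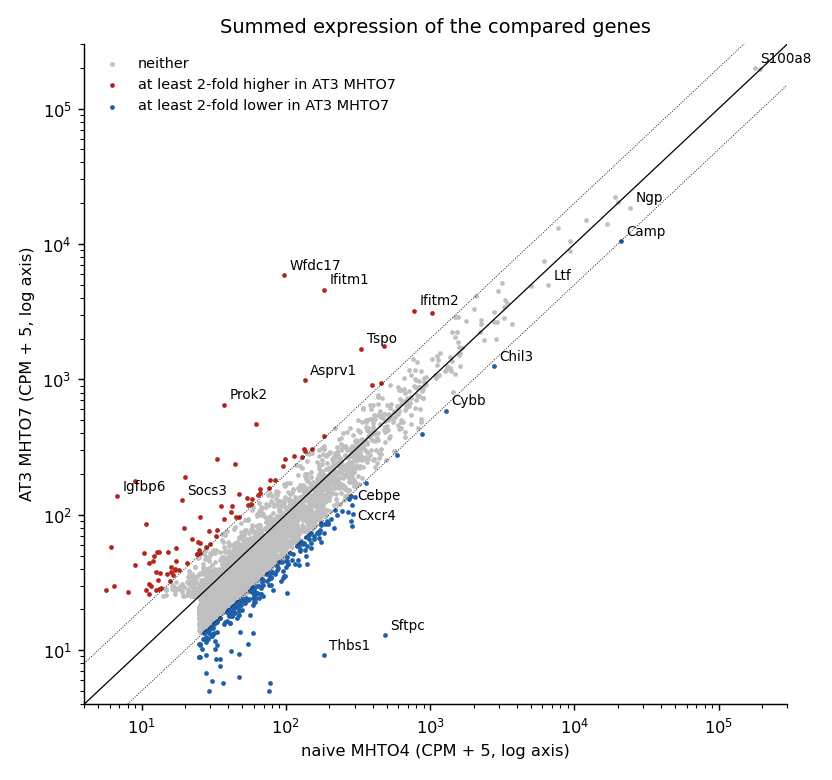
CPM + 5 of each of the 3616 compared genes in naive MHTO4 (horizontal) and AT3 MHTO7 cells (vertical), both axes log scaled, with the line of equality and dotted 2-fold lines. Red points are the 90 genes at least 2-fold higher in AT3 MHTO7 and blue points the 220 genes at least 2-fold lower; Wfdc17 and Ifitm1 stand farthest above the line among abundant genes, and Camp lies on the lower 2-fold line.

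Of 14 secondary granule genes compared, 0 were higher and 4 were lower in AT3 MHTO7, against 2.49% and 6.08% of all compared genes. The median log2 ratio of the 14 was -0.40, which became 0.05 under TMM. The lower genes were Camp, Chil3 (a chitinase-like lectin, 1243 against 2767 CPM), Cybb (the catalytic subunit of the NADPH oxidase, 581 against 1281 CPM) and Orm1 (an acute-phase protein, 16.5 against 54.6 CPM). Under TMM, Chil3 and Cybb were at -0.70 and -0.69 and no longer called, and with equal weight per range of granule share Orm1 was at -0.87. Among cells with a granule share of 8% or more, Chil3 and Cybb had log2 ratios of -0.48 and -0.59 and were not called. Other granule genes lay on the opposite side without reaching 2-fold: Hp (haptoglobin) was at 3293 and 2012 CPM, and Lcn2 (lipocalin 2, which binds bacterial siderophores) at 15001 and 12036 CPM. Lcn2 had positive log2 ratios in all 4 ranges, from 0.99 in the lowest to 0.40 in the highest. Mmp8, the neutrophil collagenase, was lower in all 4 ranges, from -0.39 to -0.73, again under 2-fold.

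None of the 9 gelatinase granule genes was called, and their median was -0.52 (-0.07 under TMM). Retnlg (a resistin-like protein) was at 22104 and 19146 CPM, and Mmp25 (a membrane-bound metalloprotease) had the lowest log2 ratio, -0.98. Of 4 primary granule genes compared, Ctsc was higher (37.5 against 4.05 CPM). Ctsc encodes cathepsin C, which activates the granule serine proteases, and the lymphocyte-marked cells held 43.1 and 88.2 CPM of it. Elane, the gene of neutrophil elastase, was at 1.33 and 42.7 CPM, but 96.9% of its naive counts came from 1 cell, whose barcode was called in both libraries. Without barcodes called in both libraries its log2 ratio was -0.00. Cell cycle genes were called in neither direction among 9 compared; Mki67, a proliferation marker, was at 10.5 and 16.5 CPM. Among cells with a granule share of 8% or more, 2 of 18 cell cycle genes were higher and 0 lower, against 1.54% and 4.94% of all genes. The median of the 18 was 0.65 in that range, against -0.26 for all genes. There Mki67 was at 53.0 and 46.1 CPM, and Ube2c, which acts in mitotic exit, at 238 and 83.7 CPM. Few cells carried such counts: over all AT3 MHTO7 cells, 20 of 284 Cenpa-positive cells held 50% of its counts. Leaving out early precursor or cycling cells kept 1956 of 1969 AT3 and 2051 of 2062 naive cells. The log2 ratio of Ube2c over all cells then went from 0.43 to 0.08. Transcription factors of granulopoiesis gave 2 lower genes of 9, where 6.08% of all compared genes were lower. They were Cebpe, the factor that switches on secondary granule genes, at 112 against 280.3 CPM, and Runx1 at 13.9 against 38.0 CPM. Cebpe had log2 ratios of -1.70, -1.26, -1.07 and -0.53 from the lowest range of granule share to the highest. Under TMM Cebpe was at -0.85 and Runx1 at -0.82, and neither gene was called. The naive MHTO4 level of Runx1 was not above the 46.7 CPM (30.8 to 67.9) of lymphocyte-marked naive cells.

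The genes with the highest ratios encode a small secreted protein and a small membrane protein. Wfdc17 (chr11:83703991-83706268, plus strand), a whey acidic protein family member, was at 5894 CPM (5861 to 5927) in AT3 MHTO7 and 91.9 CPM (86.8 to 97.3) in naive MHTO4, a log2 ratio of 5.93. Ifitm1 (chr7:140967221-140969825, plus strand), an interferon-induced membrane protein, was at 4603 CPM (4574 to 4632) and 178 CPM (171 to 186), a log2 ratio of 4.65. Both genes were higher still in the other AT3 populations, Wfdc17 at 13334 CPM in MHTO8 and 15571 CPM in MHTO10, and Ifitm1 at 10670.3 and 13059 CPM. Naive MHTO4 was the lowest of the 6 populations for both: naive MHTO3 and MHTO5 held 1326 and 759.9 CPM of Wfdc17.

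Prok2 (chr6:99711299-99726392, minus strand), which encodes the chemokine-like peptide prokineticin 2, was at 646 CPM (635 to 657) in AT3 MHTO7 and 32.1 CPM (29.1 to 35.4) in naive MHTO4. Its level in AT3 MHTO7 was above those of AT3 MHTO8 (584 CPM) and MHTO10 (451 CPM), and the naive populations held 6.70 to 32.1 CPM. After thinning to 2000 UMIs, 45.7% of AT3 MHTO7 cells and 6.13% of naive MHTO4 cells had a Prok2 UMI. In lymphocyte-marked cells, which should lack it, the share was 11.1% of 18 AT3 cells and 2.82% of 71 naive cells, at median depths of 5413.5 and 4778 UMIs without thinning.

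Several of the other genes with the highest ratios act in metabolism or at the cell surface. Igfbp6, which binds insulin-like growth factor, was at 133 and 1.79 CPM. Steap4, a metalloreductase, was at 172 and 4.05 CPM. Upp1, which splits uridine, was at 255 and 28.3 CPM, and Ggt1, which breaks down extracellular glutathione, at 80.5 and 5.77 CPM. Lipg, endothelial lipase, was at 52.4 and 1.09 CPM, and its AT3 level was not above the 69.0 CPM (39.5 to 112) of lymphocyte-marked AT3 cells. Asprv1, a retroviral-like aspartic protease, was at 978 and 129.8 CPM, and Tspo, the mitochondrial translocator protein, at 1683 and 328 CPM. Steap4 and Igfbp6 were, like Wfdc17, higher in the other AT3 populations than in AT3 MHTO7 (353 and 669 CPM of Steap4, 529.6 and 700.2 CPM of Igfbp6). Ggt1 was highest in AT3 MHTO7 among the 6 populations, with 53.3 and 44.6 CPM in AT3 MHTO8 and MHTO10.

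Comparing cells of like granule share showed which differences persisted in the granule-rich cells. In the range under 0.5%, 116 of 3876 compared genes were higher (2.99%) and 440 lower (11.4%). From 0.5% to 2% there were 90 higher (2.57%) and 555 lower genes (15.9%), and from 2% to 8% there were 47 (1.37%) and 324 (9.46%). At 8% or more, 52 of 3383 genes were higher (1.54%) and 167 lower (4.94%). Of 2792 genes compared in all 4 ranges, 20 were called higher in each range, 60 were called lower in each, and 0 passed 2-fold in opposite directions.

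Wfdc17 and Ifitm1 were most abundant in the granule-poor cells. Wfdc17 was at 13681, 3552, 853 and 381 CPM in AT3 MHTO7 from the lowest range of granule share to the highest, and at 341, 41.4, 15.2 and 14.4 CPM in naive MHTO4. Ifitm1 went from 10148 to 506 CPM in AT3 MHTO7 and from 601 to 27.1 CPM in naive MHTO4. The ratios stayed high in the highest range (4.31 and 4.0 on the log2 scale), but there the AT3 levels were close to those of lymphocyte-marked AT3 cells, 341 CPM of Wfdc17 (269.8 to 425) and 638 CPM of Ifitm1 (539.8 to 750.0). The reference cells were shallower, at a median of 5413.5 UMIs against 19687.5 in this range, and hold their own RNA too. Whether the Wfdc17 and Ifitm1 counts of the granule-richest cells came from free RNA was not tested. In the highest range Steap4 was at 8.03 CPM, against 4.31 CPM (0.109 to 24.0, from 1 UMI) in lymphocyte-marked AT3 cells. Igfbp6 was at 8.89 CPM there, against 8.63 CPM (1.04 to 31.2, from 2 UMIs). These reference values rest on too few counts to set a background level. Lipg was at 39.1, 54.4, 58.2 and 68.8 CPM across the ranges and in none of them above its reference.

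Other genes stayed above the level of the lymphocyte-marked AT3 cells in the granule-richest cells. In the range of 8% or more, Prok2 was at 86.6 CPM in AT3 MHTO7 and 8.76 CPM in naive MHTO4, with 8.63 CPM (1.04 to 31.2) in lymphocyte-marked AT3 cells. Asprv1 was at 402 and 33.0 CPM with 12.9 CPM in the reference, Upp1 at 121 and 17.5 CPM with 34.5 CPM, and Tspo at 1042 and 372 CPM with 358 CPM. Asprv1 had log2 ratios of 1.90, 3.09, 3.26 and 3.42 from the lowest range to the highest, whereas those of Prok2 were 4.54, 3.80, 3.31 and 2.73. Asprv1 levels declined with granule share in both populations, from 1158 to 402 CPM and from 307 to 33.0 CPM.

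**Figure D3:**
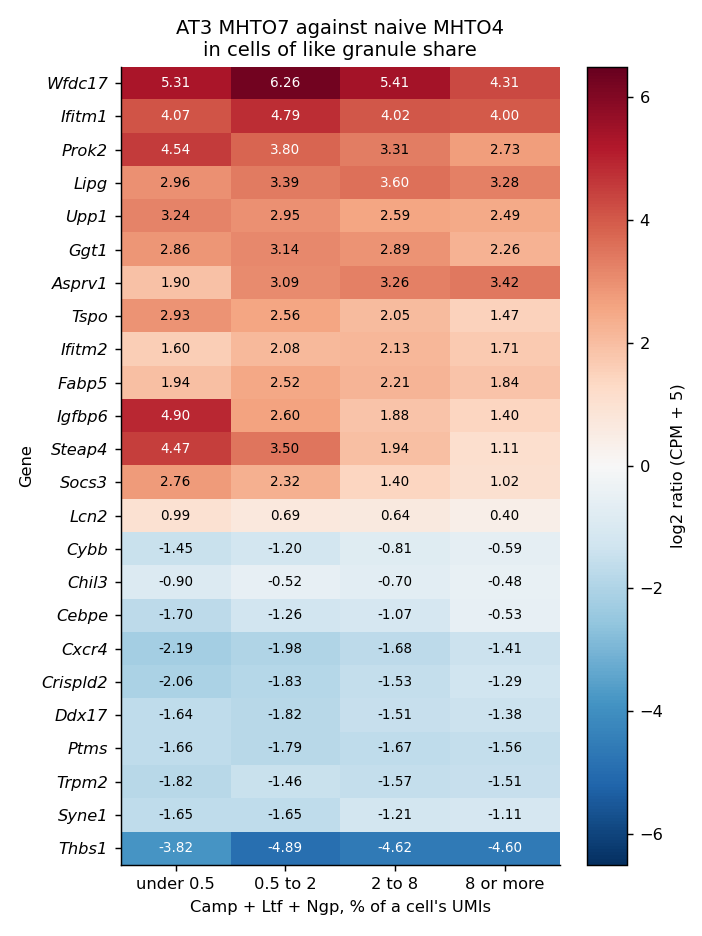
Log2 ratio (CPM + 5) of AT3 MHTO7 over naive MHTO4 for 24 genes (rows) within 4 ranges of granule share (columns, % of a cell's UMIs from Camp, Ltf and Ngp), red for higher and blue for lower in AT3 MHTO7. Igfbp6 and Steap4 go from 4.90 and 4.47 in the lowest range to 1.40 and 1.11 in the highest, whereas Asprv1 goes from 1.90 to 3.42.

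Interferon-stimulated genes were higher in AT3 MHTO7: of 26 compared of 33 listed, 14 were called higher and 0 lower, against 2.49% and 6.08% of all compared genes. Their median log2 ratio was 1.08 against -0.29 for all genes. Over all alternative settings that median lay between 0.80 and 1.48. Besides Ifitm1, the called genes included Ifitm2 (3204 against 765 CPM) and Ifitm3 (3098 against 1028 CPM), which block virus entry. Ifit1, which binds viral RNA, was at 74.6 and 14.7 CPM, and Isg15, a ubiquitin-like modifier, at 149.6 and 60.7 CPM. Lymphocyte-marked AT3 cells held 125 CPM of Ifit1 (83.8 to 180), 194 CPM of Isg15 (142 to 259.8), 112 CPM of Gbp2 and 263 CPM of Slfn5, so the AT3 MHTO7 levels of these genes were not above that reference. Ifitm2 and Ifitm3 were above it, with 936 and 1833 CPM in those cells. The reference includes transcripts of the lymphocytes themselves, so it does not measure free RNA alone. Gbp2, a guanylate-binding GTPase, had a log2 ratio of 2.05, Ifit3 of 1.71, Zbp1 of 1.41, Slfn5 and Rtp4 of 1.27 each, Isg20 of 1.12, Ifit3b of 1.11, Irf7 of 1.10 and Oasl2 of 1.05. The lowest ratio in the list was that of Cmpk2, -0.74. Ifit3 and Ifit3b, and the Ifitm genes, are similar in sequence, so the counts assigned to each are uncertain.

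Against the other populations many of these levels were low. Of the 26 genes, naive MHTO4 had the lowest level of the 3 naive populations in 21 and AT3 MHTO7 the lowest of the 3 AT3 populations in 20. In 13 genes both lay below all of the other 4 populations, and Isg15 reached 1255 CPM in naive MHTO5. Few cells carried most of the Ifit1 counts: 29 of 348 Ifit1-positive AT3 MHTO7 cells held 50% of them, and 19 of 93 positive naive MHTO4 cells did. After thinning, 7.61% of AT3 MHTO7 and 2.52% of naive MHTO4 cells had an Ifit1 UMI, against 11.1% of 18 and 1.41% of 71 lymphocyte-marked cells. The lymphocyte-marked cells were not thinned. All 29 Ifit1 UMIs of the AT3 lymphocyte-marked cells lay in that 11.1% of 18 cells. Whether they were free RNA or those cells' own transcripts was not tested, so the share does not measure background. Within the ranges of granule share the list's median was 0.84, 0.98, 0.65 and 0.81, and the calls were 9 of 29, 13 of 26, 5 of 20 and 4 of 16 genes higher and 0 lower. All genes compared in these ranges had medians of -0.35, -0.41, -0.38 and -0.26. Of them 2.99%, 2.57%, 1.37% and 1.54% were called higher, and 11.4%, 15.9%, 9.46% and 4.94% lower.

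**Figure D4:**
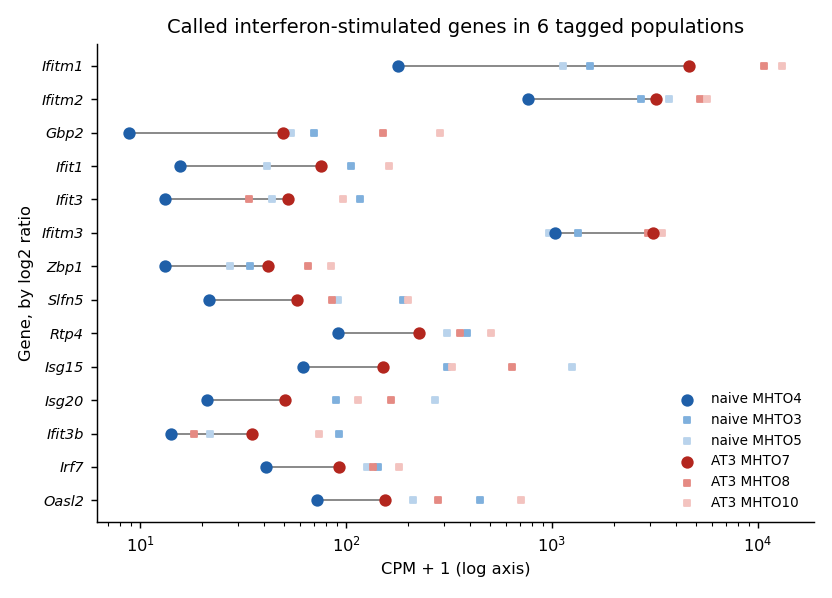
CPM + 1 (log axis) of the 14 interferon-stimulated genes called higher in AT3 MHTO7, ordered by log2 ratio, in naive MHTO4 and AT3 MHTO7 (large points, joined by a line) and in the other 4 populations of these libraries (small squares). The genes shown were picked by this ratio; Ifitm1 has the highest, 4.65, and Oasl2 the lowest, 1.05.

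Interferon-regulated promoters often carry an interferon-stimulated response element (ISRE), and the promoters of called genes were searched for it. The searched window ran from 250 bases before to 50 bases after each start in RefSeq (GRCm38.p6), on both strands, for the letters GAAA, any 2 bases, then GAAA. A match was present in 3.49% of 27025 promoters and in 4.10% of the 2930 compared genes with a promoter. It was present in 14 of 78 genes higher in AT3 MHTO7 (17.9%) and in 4 of 177 lower genes (2.26%). Of the 12 interferon-list genes that were higher and had a promoter, 8 held a match, as did 14 of the 28 listed genes with a promoter. The windows below show a match in capitals, in 60 bases read 5′ to 3′ on the gene's own strand, for 5 of these genes.
Ifit1, chr19:34640760-34640819, plus strand: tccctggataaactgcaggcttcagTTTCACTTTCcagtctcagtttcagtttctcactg
Ifit3, chr19:34583348-34583407, plus strand: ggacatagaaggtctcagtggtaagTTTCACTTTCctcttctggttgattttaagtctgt
Gbp2, chr3:142620579-142620638, plus strand: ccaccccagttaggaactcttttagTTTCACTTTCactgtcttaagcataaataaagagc
Isg15, chr4:156200856-156200915, minus strand: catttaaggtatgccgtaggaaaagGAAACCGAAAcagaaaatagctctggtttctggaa
Ifitm2, chr7:140955973-140956032, minus strand: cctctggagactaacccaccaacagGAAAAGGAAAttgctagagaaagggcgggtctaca
In Ifit1, Ifit3 and Gbp2 the match lies on the opposite strand, so its reverse complement is seen. A match describes letters in the window and is no measurement of binding.

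Of 16 compared targets of G-CSF and STAT3, 5 were higher and 0 lower, with a median of 0.62. Over all compared genes 2.49% were higher and 6.08% lower, and the median was -0.29. The 5 higher targets were Steap4, Prok2, Socs3, Il4ra and Junb. Socs3, a feedback inhibitor of STAT3 signalling, was at 123 against 14.1 CPM. Il4ra, the interleukin 4 receptor, was at 110 against 30.3 CPM, and Junb, an AP-1 transcription factor, at 303 against 128 CPM. Socs3 was also at 462 and 95.1 CPM in lymphocyte-marked cells, above its level in the neutrophils, and had a log2 ratio of 2.76 in the lowest range of granule share and 1.02 in the highest. Csf3r, the G-CSF receptor, was at 565 and 555 CPM, a log2 ratio of 0.03. Within the ranges of granule share, from the lowest to the highest, its log2 ratios were -0.37, -0.43, -0.64 and -0.52. Stat3 was at 90.5 and 96.5 CPM. Csf3, which encodes G-CSF, was at 0.143 and 0.156 CPM. A STAT-like motif, TTCNNNGAA, was present in 13 of 78 promoters of higher genes (16.7%), in 9 of 177 of lower genes (5.08%), in 6.31% of compared genes and in 8.47% of all promoters. Windows of Socs3 and Steap4 are shown with the match in capitals, on the gene's own strand.
Socs3, chr11:117969486-117969545, minus strand: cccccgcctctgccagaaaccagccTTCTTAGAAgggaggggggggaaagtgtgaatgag
Steap4, chr5:7960331-7960390, plus strand: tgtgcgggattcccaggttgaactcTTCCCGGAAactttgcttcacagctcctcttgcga
A motif of the C/EBP family, TTGCNNAA, was in 7.69% of promoters of higher and 7.34% of lower genes, against 9.15% of compared genes. The searched letters can overlap within a promoter.

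Protease inhibitors gave 5 higher genes of 10 and 0 lower, with a median of 0.81, against 2.49% higher among all compared genes and their median of -0.29. Besides Wfdc17 these were the stefin genes Stfa1, Stfa2, Stfa2l1 and Stfa3, inhibitors of cysteine proteases. Stfa2 was at 186 and 15 CPM, and Cstdc5, a related cystatin outside the list, at 460.4 and 57 CPM. Few cells carried these transcripts: 50% of the AT3 MHTO7 counts lay in 28 cells for Stfa2 and in 16 cells for Cstdc5. The stefin genes are near-identical copies in a cluster, so the split of reads between them is uncertain. Genes linked to suppressive myeloid cells in tumours gave 6 higher and 0 lower of 16, with a median of 0.74, beside the same background. The 6 were Wfdc17, Ifitm1, Igfbp6, Prok2, Il4ra and Stfa2l1, which other lists above also hold in part. The list also holds Arg2 (164 against 92.8 CPM), Il1b (400 against 246 CPM) and Cxcr2 (684 against 650 CPM), which were not called. Of the 16 genes, 12 had log2 ratios above 0. Among those below 0 were Cd84, the lowest at -0.57, and Tgfb1 at -0.43. Over all alternative settings the list's median lay between 0.16 and 1.18, and with equal weight per range of granule share it was 0.37.

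Lipid genes were called in both directions, 4 higher and 2 lower of 13, where 2.49% and 6.08% of all compared genes were called. Lipg, Fabp5 (a fatty acid carrier, 233 against 39.5 CPM), Apoc2 and Apoe were higher. Acsl1, which activates fatty acids, was lower (51.8 against 145 CPM), as was Lta4h, which makes leukotriene B4 (79.2 against 172 CPM). Both lost their calls under TMM (-0.98 and -0.64), and Lta4h was at -0.56 with equal weight per range of granule share. Iron and haem genes gave 3 higher and 1 lower of 12: Steap4, Alas1 (the first enzyme of haem synthesis, 140.3 against 61.6 CPM) and Hmox1 (haem oxygenase, 90.7 against 42.7 CPM) were higher, and Ncoa4, which delivers ferritin for breakdown, was lower (80 against 191 CPM; -0.78 and not called under TMM). Among 16 antioxidant genes Ggt1 and Gclm (a subunit of the enzyme that starts glutathione synthesis, 138 against 41.9 CPM) were higher and Slc7a11, the cystine importer, lower (11 against 36.2 CPM). The naive MHTO4 level of Slc7a11 was not above the 41.5 CPM (26.6 to 61.7) of lymphocyte-marked naive cells. Of 22 glycolysis and hypoxia genes 1 was higher, the glucose transporter Slc2a1 (48.5 against 10.3 CPM).

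The chemokine receptor Cxcr4 and some adhesion and oxidase genes were lower. Cxcr4 (chr1:128588199-128592293, minus strand), which holds neutrophils in bone marrow, was at 78.0 CPM (74.2 to 81.8) in AT3 MHTO7 and 280.3 CPM (271 to 289.6) in naive MHTO4, a log2 ratio of -1.78. It was lower in all 4 ranges of granule share, from -2.19 in the lowest to -1.41 in the highest, and stayed called under TMM at -1.35. AT3 MHTO7 was the lowest of the 6 populations, and naive MHTO5 the highest at 991 CPM. Cxcr1, a chemokine receptor, was higher (22.1 against 3.04 CPM), the only other called gene among 10 chemoattractant receptors. Of 12 adhesion genes 2 were lower and 0 higher, Itgal (the alpha chain of LFA-1, 102 against 240.5 CPM) and Ncam1 (8.41 against 54.6 CPM), with a median of -0.59 against -0.29 for all genes. Itgal was at -0.77 under TMM and not called. Of 8 NADPH oxidase genes 2 were lower, Cybb and Hvcn1, the proton channel that sustains the oxidase (8.75 against 43.1 CPM). Lymphocyte-marked naive cells held 95.1 CPM of Hvcn1 (71.6 to 124), so its naive MHTO4 level was not above that reference. The other 6 oxidase genes were not called and the list's median was -0.23, or 0.22 under TMM. Cybb lost its call under TMM, as given above. Over all compared genes 2.49% were called higher and 6.08% were called lower. Cyba, the partner of Cybb in the oxidase, was at 1703 and 1656 CPM.

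Thbs1 (chr2:118111876-118127133, plus strand), which encodes thrombospondin 1, was at 4.18 CPM (3.36 to 5.15) in AT3 MHTO7 and 179 CPM (172 to 186) in naive MHTO4, a log2 ratio of -4.32. Its naive counts were spread over 968 cells and over all 4 ranges of granule share, at 156, 223, 215 and 137 CPM. In the same naive library MHTO5 cells held 4151 CPM, and lymphocyte-marked naive cells 74.3 CPM. Lymphocyte-marked AT3 cells held 56.1 CPM (29.9 to 95.9), above the AT3 MHTO7 level, so this reference does not measure free RNA alone. Whether part of the naive MHTO4 counts came from free RNA of the MHTO5 cells was not tested. Thinned to 2000 UMIs, 26.3% of naive MHTO4 and 0.919% of AT3 MHTO7 cells had a Thbs1 UMI. Without thinning the shares were 46.9% and 4.27%, against 16.9% of 71 naive and 11.1% of 18 AT3 lymphocyte-marked cells, which were not thinned.

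Further genes were lower in every range of granule share. Syne1, a nuclear envelope protein, was at 96.9 and 287 CPM, and it was more abundant in both granule-rich populations than in the other 4, where it lay between 25.5 and 34.6 CPM. Crispld2, a secreted glycoprotein, was at 85.8 and 279 CPM. Trpm2, an oxidant-sensitive cation channel, was at 38.6 and 112 CPM, Satb1, a chromatin organiser, at 30.2 and 92.7 CPM, and the RNA helicase Ddx17 at 30.1 and 93.6 CPM. For Satb1 the naive MHTO4 level was not above the 175 CPM (142 to 212) of lymphocyte-marked naive cells. For Ddx17 it lay within the interval of those cells, 70.9 CPM (50.9 to 96.2). Stk39, a kinase, and Tnfsf13b, which encodes the B cell factor BAFF, were at 21.6 and 13.1 CPM in AT3 MHTO7 against 96.7 and 51.1 CPM.

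Some of the lowest ratios came from 1 naive cell each. Sftpc was at 7.89 and 481 CPM, a log2 ratio of -5.24, and 96.7% of its naive counts came from 1 cell. Sftpa1, another surfactant gene, and Prss34, a mast cell and basophil protease, were at 0.713 and 0 CPM in AT3 MHTO7 and at 72.6 and 71.5 CPM in naive MHTO4, with 97.7% and 98.9% of naive counts in 1 cell. Without cells in which markers of other cell types made up at least 1% of UMIs, the log2 ratios were -0.71 for Sftpc, -0.22 for Sftpa1 and -0.21 for Prss34. These values describe single cells of the naive population.

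The remaining lists held few called genes. Over all compared genes 2.49% were called higher and 6.08% lower. Of 15 late maturation genes 2 were higher, Junb and Ly6e (252 against 94.3 CPM). With equal weight per range of granule share neither was called (0.84 and 0.90), Ly6e was at 0.88 with no S100 minimum, and lymphocyte-marked AT3 cells held 1808 CPM of Junb and 1812 CPM of Ly6e. Of 16 survival and death genes 1 was higher, the inflammatory caspase Casp4 (70.5 against 24.3 CPM). Of 15 protein folding genes 1 was lower, Hsp90b1, the endoplasmic reticulum chaperone (29.0 against 74.3 CPM). Hsp90b1 lost its call under TMM (-0.82) and with equal weight per range of granule share (-0.94). Its naive MHTO4 level was not above the 375 CPM (327 to 429) of lymphocyte-marked naive cells. In the lists of nuclear-encoded mitochondrial respiration (32 genes), major histocompatibility class I presentation (12), nuclear factor kB feedback (11), chemokines and cytokines (6) and S100 alarmins (5), 0 genes were called. S100a8 was at 199295 and 178766 CPM and S100a9 at 195375 and 194346 CPM. Ly6g, the neutrophil surface marker, was at 999.8 and 778 CPM. Mitochondrially encoded transcripts summed to 6874 CPM in AT3 MHTO7 and 4282 CPM in naive MHTO4, and the 84 compared ribosomal protein genes, none of them called, had a median of 0.08.

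**Figure D5:**
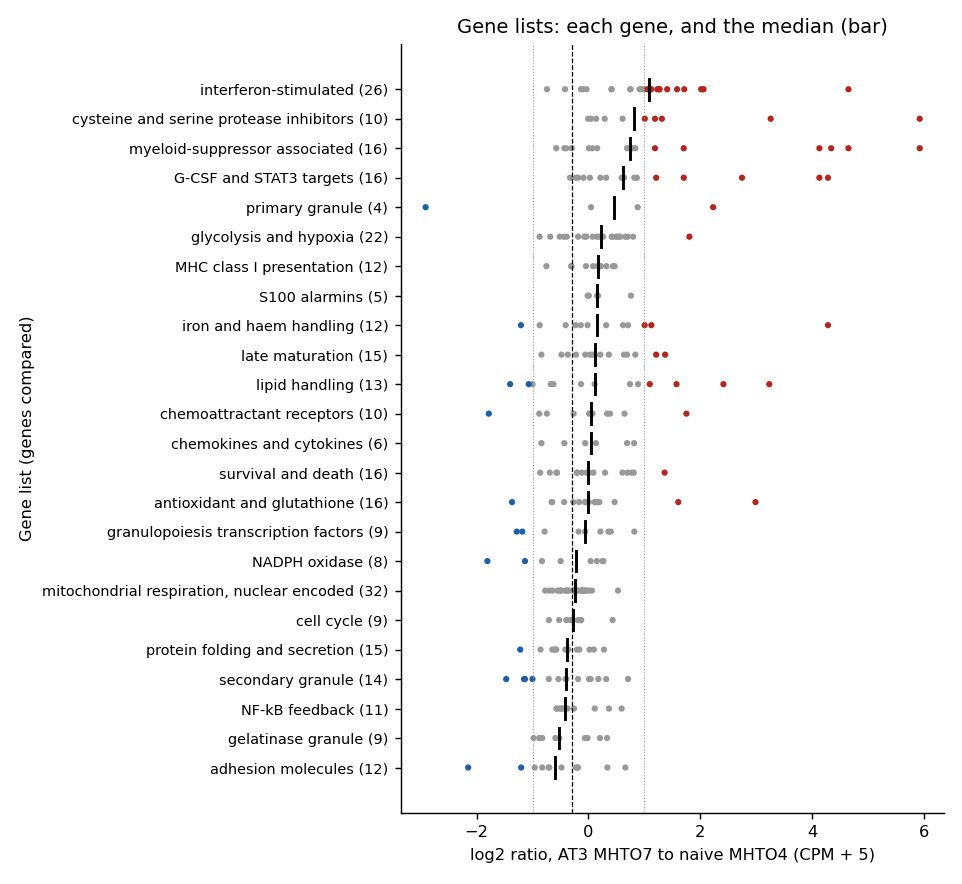
Log2 ratio (CPM + 5) of AT3 MHTO7 over naive MHTO4 for every compared gene of the 24 lists (points; red called higher, blue called lower) with each list's median (black bar), ordered by median. Dotted lines mark 2-fold and the dashed line the median of all compared genes, -0.29; the interferon-stimulated list has the highest median, 1.08, and adhesion molecules the lowest, -0.59.

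Whether these differences ran through the whole libraries was described with the other 4 populations, which the comparison did not use. Of the 90 higher genes, 58 (64.4%) had both other AT3 populations above both other naive populations, and 2 had the opposite order. Of the 220 lower genes, 142 (64.5%) had both other AT3 populations below both other naive populations, and 7 had the opposite order. Among all 3616 compared genes, 1501 (41.5%) had the other 4 populations ordered the same way as their own ratio. These populations share the 2 lanes, so differences between lanes and between mice cannot be told apart.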

How the data were processed

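Raw UMI counts per gene and barcode were deposited by the authors as matrices of called barcodes over 32285 genes, for which the submitters' processing notes name bcl2fastq 2.20.0.422, Cell Ranger 4.0.0 and the build mm10. Raw hashtag counts per barcode were deposited without normalisation; their counting program was not given in the sources used here. The libraries held 54424062 (AT3) and 32089597 (naive) UMIs over 7840 and 7738 barcodes.

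Barcodes were joined to tags after removing the suffix, and 206 AT3 and 332 naive barcodes had no single tag. UMIs were summed per population and scaled to CPM (Python 3.11.15, numpy 2.4.6, scipy 1.17.1, pandas 2.3.3). TMM factors came from edgeR 4.0.16, used for scaling only, since 1 library per condition allows no test. Scrublet (scanpy 1.11.5, expected rate 8%) called 2.95% of AT3 and 2.25% of naive barcodes, 5 AT3 MHTO7 and 9 naive MHTO4 cells; doublets were removed only through tags. In counts simulated for the main comparison, 100 of 100 genes raised and 100 of 100 lowered 4-fold were called, and 0 of 3029 unchanged genes. The changed genes were at 50 CPM or more, and the simulated counts varied by counting error only. Differences between lanes, mice or cells were not simulated, so this checks the calculation and gives no rate of false calls in these data.

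Named genes were the 15 highest and 15 lowest at 50 CPM or more, the secondary granule list and 10 fixed genes. The 2 extremes of each list at both ends were named too. So were 5 genes in each direction, among those with the same sign in every granule range. These had the largest values of the smallest log2 ratio (in size) over the ranges. All other genes named were chosen from the lists after their values were seen. Of 452 list entries, 6 were not matched to 1 gene. Gene positions are from GENCODE vM21. The members and lists were chosen with earlier results of these data known.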

Additional observations from a re-analysis of the deposited data

How the results depend on the processing

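Results were recomputed under 17 alternatives, 15 fixed in the plan and 2 added after the data were seen (without cells rich in other cell types' markers, and without barcodes called in both libraries). The counts of 90 higher and 220 lower genes became 219 and 44 with TMM scaling, 151 and 367 with totals that leave out the 20 most abundant genes, and 55 and 126 with a minimum of 50 CPM. With a pseudocount of 1 CPM, 355 genes were lower. The other counts stayed within 1.5 times, but the genes called changed. With equal weight per granule range 60 genes were higher and 306 lower, of which 53 and 179 were also main calls. Main calls that remained were 73 higher and 185 lower with equal weight per cell, and 80 and 168 after thinning. The share of naive MHTO4 cells at 2% granule share or more was 47.3% after thinning. Of 54 called named genes all kept their sign under every alternative and 37 also stayed past 2-fold. Camp fell below 2-fold in 10 of them. Ltf and Ngp, not called, changed sign under TMM and equal weight per granule range. No paired analysis was possible because each condition was 1 library and no label ties a tag of one library to a tag of the other, and with 1 library per condition no replicate could be left out. Depth limits genes near 20 CPM and the shares of cells with a UMI.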
